A study of Mus musculus with 6 samples.

Results

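The genes described here belong to the red blood cell lineage and were measured in cells sorted from the mouse spleen as CD3+ T cells. They were listed by symbol: Alas2, Epb42, Slc4a1, Klf1, Ahsp, Car1, Car2, Tfrc and Gata1. Of these 9 genes, 8 were found as the only symbol of a probe set on the array, out of 19938 genes measured in this way. Ahsp matched no such probe set and was not analysed here. Each of the 8 genes had 1 probe set, so no choice between probe sets was needed.

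All 6 mice were B6D2F1/J recipients that had been lethally irradiated and reconstituted with bone marrow of B6 donors from which T cells had been removed, a parent-into-F1 transplantation. The treatment protocol speaks of recipients given or not given B6 spleen cells in addition, and does not say which of these each mouse was. In 3 mice rapamycin was injected into the peritoneum at 1.5 mg/kg every second day up to day 10, and 3 mice received PBS (phosphate-buffered saline) by the same schedule. CD3+ splenic cells were collected by flow cytometry on day 10, and the RNA of each mouse was hybridised to 1 array. The sort used CD3 only, so donor and recipient T cells were not separated. Values are log2 expression after RMA, and 1 log2 unit is a factor of 2.

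Red blood cells arise from progenitors that first express the transcription factor Gata1 and then Klf1, take up iron through the transferrin receptor Tfrc, and build haem with the enzyme Alas2 as the globin chains accumulate. Band 3 (Slc4a1) and protein 4.2 (Epb42) are assembled into the membrane late, and the carbonic anhydrases Car1 and Car2 interconvert carbon dioxide and bicarbonate. In the mouse the spleen makes red blood cells, and this activity increases after irradiation and marrow transplantation. T cells use few of these genes, although dividing T cells carry the transferrin receptor.

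The promoters of 3 of these genes are shown: Alas2 and Epb42, which varied between mice as described further on, and Klf1, which hardly varied. Each line holds the 250 bases before the annotated gene start, read 5′ to 3′ on the gene's strand, from RefSeq promoter windows of GRCm38.p6. Capitals mark GATAA, the core that GATA factors such as Gata1 bind, and CACCC, the core bound by Klf1, on either strand (TTATC and GGGTG on the reverse). The Alas2 window lies on the plus strand at chrX:150547167-150547416, the Epb42 window on the minus strand at chr2:121036878-121037127, and the Klf1 window on the plus strand at chr8:84901732-84901981.
Alas2: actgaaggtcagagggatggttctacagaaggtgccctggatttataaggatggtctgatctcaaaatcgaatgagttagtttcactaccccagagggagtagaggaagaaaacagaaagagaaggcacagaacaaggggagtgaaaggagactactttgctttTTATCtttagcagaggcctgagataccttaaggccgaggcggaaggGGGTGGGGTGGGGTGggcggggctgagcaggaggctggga
Epb42: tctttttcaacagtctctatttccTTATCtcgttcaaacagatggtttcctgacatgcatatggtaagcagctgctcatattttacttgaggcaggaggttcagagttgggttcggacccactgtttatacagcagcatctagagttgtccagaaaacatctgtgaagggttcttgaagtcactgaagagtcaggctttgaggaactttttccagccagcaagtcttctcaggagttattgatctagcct
Klf1: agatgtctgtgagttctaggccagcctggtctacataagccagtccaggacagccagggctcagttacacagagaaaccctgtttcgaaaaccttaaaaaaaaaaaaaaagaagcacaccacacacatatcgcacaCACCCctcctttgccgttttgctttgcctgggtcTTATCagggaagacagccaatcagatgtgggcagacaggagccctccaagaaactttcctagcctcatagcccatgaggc
The Alas2 window held 1 GATA core and 3 CACCC cores, which did not overlap each other. The Klf1 window held 1 of each, and the Epb42 window held 1 GATA core and 0 CACCC cores. These letters are common: 22.6% of 32851 promoter windows of this length held a GATA core, 52% a CACCC core and 10.1% both. Windows were found for 5 of the 8 genes, namely these 3, Gata1 and Tfrc, and 3 of the 5 genes held a GATA core.

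The cells carried T cell transcripts in every mouse. Cd3e, a subunit of the CD3 complex used for the sort, measured 12.86, 12.82 and 12.92 with PBS and 12.78, 12.92 and 12.81 with rapamycin (replicates 1, 2 and 3). Array medians lay between 6.03 and 6.17, and the arrays correlated with each other at 0.989 to 0.993 over all probe sets. Rapamycin replicate 1 had the lowest weight, 0.471, when arrays were weighted by how well they matched their group, and the others had weights of 0.865 to 1.45. The labels call the mice biological replicates. Detection calls were not used, so whether a low value lies above background was not tested. In RNA of a sorted population, fewer erythroid cells and less erythroid RNA per cell cannot be told apart.

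The comparison asked whether erythroid transcripts in the sorted cells differ between recipients given rapamycin and PBS. None of the 8 genes passed limma's test at an adjusted p under 0.05 (0 of 8), where 0.00502% of all 19938 genes passed. At an unadjusted p under 0.05 the count was also 0 of 8, against 4.67% of all genes. The groups overlapped for every one of the 8 genes, while they did not overlap for 9.42% of all genes. The difference, rapamycin minus PBS, was positive for 6 of the 8 genes, against 44.7% of all genes. Its median was 0.22 log2 over the 8 genes and -0.01 over all genes. With single mice left out the median of the 8 genes was 0.09 without PBS replicate 3 or rapamycin replicate 2, 0.13 without rapamycin replicate 1, 0.14 without PBS replicate 2 and up to 0.28 otherwise. The limma adjusted p was 0.9998 or higher for each gene, and it lay between 0.659 and 1 over 15 alternatives.

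Alas2 encodes the erythroid enzyme of the first step of haem synthesis. It measured 5.69, 5.79 and 6.72 in PBS replicates 1, 2 and 3, and 5.88, 6.90 and 6.32 in rapamycin replicates 1, 2 and 3. One mouse of each group, PBS replicate 3 and rapamycin replicate 2, stood high, and the lowest rapamycin mouse lay below the highest PBS mouse. The means were 6.07 ± 0.57 and 6.37 ± 0.51 (SD, n = 3 each), a difference of 0.30 (SE 0.31, 95% interval -0.41 to 1.01, limma adjusted p = 0.9998). Leaving out rapamycin replicate 2 brought the difference to 0.03, and leaving out PBS replicate 3 to 0.63. Within a group, Alas2 was 2.03-fold higher in PBS replicate 3 than in replicate 1, and 2.02-fold higher in rapamycin replicate 2 than in replicate 1.

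Among the membrane genes, Slc4a1 encodes band 3, the chloride and bicarbonate exchanger of the red cell. It measured 7.31, 7.72 and 8.15 with PBS and 7.86, 8.69 and 7.97 with rapamycin. The highest mouse again was rapamycin replicate 2 and the lowest PBS replicate 1, with the other 4 between them. The difference of 0.45 (SE 0.25, 95% interval -0.13 to 1.03, limma adjusted p = 0.9998) was the largest of the 8 genes. It ranged from 0.19 without rapamycin replicate 2 to 0.66 without PBS replicate 3.

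Epb42 encodes protein 4.2, which links band 3 to the membrane skeleton. It measured 5.39, 5.40 and 5.49 with PBS and 5.72, 6.05 and 5.42 with rapamycin. The PBS mice lay close together, with an SD of 0.06, and the rapamycin mice spread to an SD of 0.31, with replicate 3 within the PBS range. The difference was 0.31 (SE 0.14, 95% interval -0.02 to 0.63, limma adjusted p = 0.9998). It fell to 0.15 when rapamycin replicate 2 was left out.

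Car1 encodes the abundant carbonic anhydrase of red cells and their late progenitors. It measured 9.25, 8.06 and 6.96 with PBS and 8.79, 7.88 and 8.02 with rapamycin. The PBS mice alone spanned the whole range of the 6 mice, and PBS replicate 1 was 4.88-fold above PBS replicate 3. The difference was 0.14 (SE 0.50, 95% interval -1.002 to 1.28, limma adjusted p = 0.9998). Its sign was not stable: it was -0.43 without PBS replicate 3, -0.14 without rapamycin replicate 1 and 0.72 without PBS replicate 1.

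Car2 encodes a second carbonic anhydrase, which other blood and tissue cells also express. It measured 8.21, 7.39 and 7.25 with PBS and 7.73, 7.79 and 7.33 with rapamycin. PBS replicate 1 stood highest and the other 5 mice lay within the range of 7.25 to 7.79. The means were 7.62 ± 0.52 with PBS and 7.62 ± 0.25 with rapamycin (SD, n = 3 each), and the 95% interval of the difference ran from -0.54 to 0.54. Over the alternatives its difference took both signs, from -0.18 without PBS replicate 3 to 0.30 without PBS replicate 1.

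Tfrc encodes the transferrin receptor through which cells import iron. It measured 8.002, 8.19 and 7.66 with PBS and 8.43, 8.26 and 8.06 with rapamycin. Rapamycin replicates 1 and 2 lay above all PBS mice, and rapamycin replicate 3 lay below PBS replicate 2. The difference was 0.30 (SE 0.15, 95% interval -0.04 to 0.63, limma adjusted p = 0.9998). It ranged from 0.15 without PBS replicate 3 to 0.42 without PBS replicate 2. Markers of dividing cells, which also carry this receptor, had a mean level between 10.3 and 10.5 with PBS and between 10.2 and 10.4 with rapamycin. The differences were negative for all 11 measured genes of that list (median -0.08), and their part in the Tfrc values was not tested.

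Among the erythroid genes listed at the start, the transcription factors Klf1 and Gata1 varied least. Gata1, which drives erythroid, megakaryocyte, mast cell and eosinophil genes, measured 5.83, 5.67 and 5.597 with PBS and 5.82, 5.87 and 5.62 with rapamycin. Its difference was 0.07 (SE 0.10, 95% interval -0.15 to 0.30, limma adjusted p = 0.9998). Klf1, the activator of adult beta-globin and many red cell genes, measured 5.63, 5.72 and 5.70 with PBS and 5.68, 5.65 and 5.64 with rapamycin. Its difference was -0.03 (SE 0.07, 95% interval -0.20 to 0.13, limma adjusted p = 0.9998). Both genes lay below the median of each array in every mouse, where RMA compresses differences. This limit is not theirs alone: by mean level Klf1 ranked at the 38.6th and Gata1 at the 39.8th percentile of all genes. Epb42 ranked lower still, at the 36.8th, and Alas2 at the 47.9th.

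**Figure D1:**
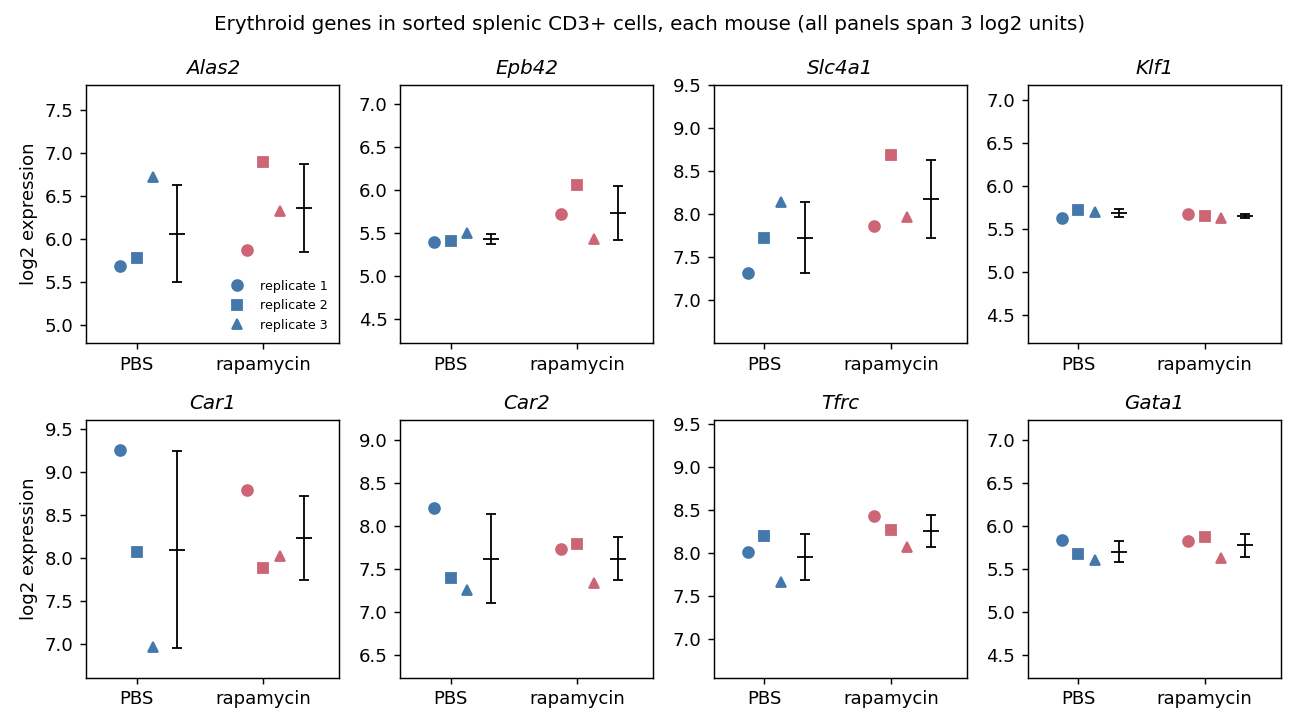
Log2 expression of the 8 erythroid genes in each mouse, PBS in blue and rapamycin in red, with marker shape for the replicate number and black bars for the group mean ± SD (n = 3). Car1 spans from 6.96 to 9.25 within the PBS group, Klf1 from 5.63 to 5.72, and the groups overlap in all 8 panels.

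Most of these genes varied widely between mice of one group. The residual SD within groups, whose median over all genes was 0.117 log2, was 0.880 for Car1, 0.539 for Alas2, 0.434 for Slc4a1 and 0.405 for Car2. Among the 19938 genes these ranked at the 99.9th, 99.6th, 99.1st and 98.8th percentile. Tfrc (0.230) and Epb42 (0.225) ranked at the 91.3rd and 90.5th percentile. Gata1 lay near the middle with 0.124, the 54.3rd percentile, and Klf1 near the bottom with 0.036, the 2.31st percentile. The ranks are a description of these arrays and were not tested.

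Adult globin chains carry oxygen and are the most abundant products of a maturing red cell. The array held 4 probe sets for them, 2 that name both adult alpha-globin genes and 2 that name several adult beta-globin genes, so no single globin gene can be read from any of them. Their mean measured 9.77, 10.6 and 11.8 in PBS replicates 1, 2 and 3, and 10.6, 12.1 and 11.4 in rapamycin replicates 1, 2 and 3. The highest mouse, rapamycin replicate 2, lay 5.14-fold above the lowest, PBS replicate 1, and the groups overlapped. The 4 probe sets had differences of 0.64 to 0.71, with standard errors of 0.56 to 0.59. In a limma fit over all 35556 probe sets each had an adjusted p of 1, where 0% of probe sets passed. The 4 differences lay between 0.18 and 0.23 without PBS replicate 1, between 0.25 and 0.34 without rapamycin replicate 2 and between 1.15 and 1.26 without PBS replicate 3. Without rapamycin replicate 1 they lay between 1.04 and 1.10.

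**Figure D2:**
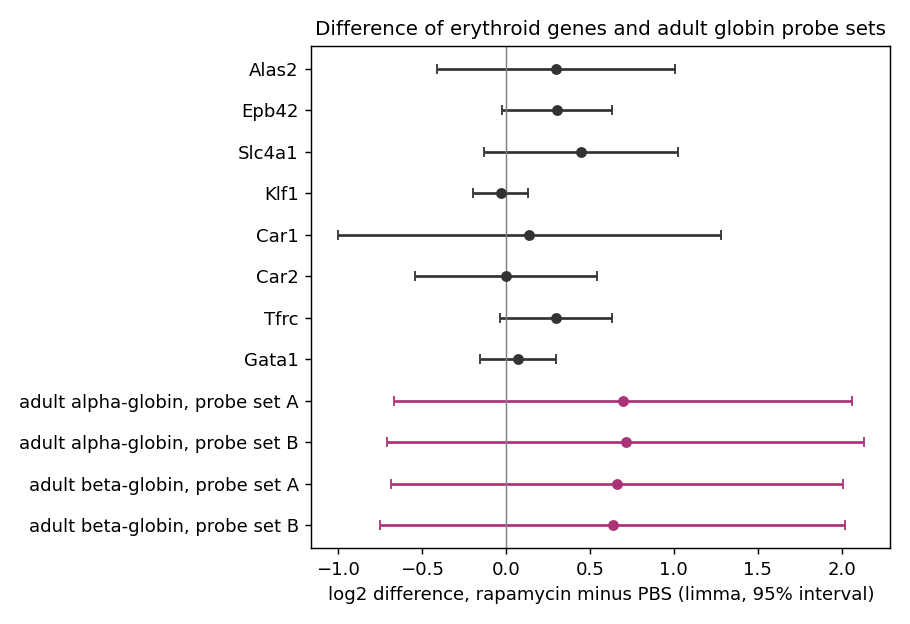
Log2 difference, rapamycin minus PBS, for the 8 erythroid genes (black) and the 4 adult globin probe sets (purple), with limma's 95% interval. All intervals include 0. Among the 8 genes the interval of Klf1 is the narrowest (-0.20 to 0.13) and that of Car1 the widest (-1.002 to 1.28).

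Alas2, Slc4a1 and the adult globin mean placed the 6 mice in an identical order, from PBS replicate 1, PBS replicate 2, rapamycin replicate 1, rapamycin replicate 3 and PBS replicate 3 up to rapamycin replicate 2. PBS replicate 2 and rapamycin replicate 1 were nearly level in the globin mean, at deviations of -0.45 and -0.44 from the mean of the 6 mice, and 1 of the 4 probe sets had them the other way round. Over the 6 mice Alas2 correlated with the adult globin mean at r = 0.960 (exact permutation p = 0.00139, the smallest that 720 permutations can give, adjusted p = 0.0222, two-sided). Spearman's rho was 1 (exact permutation p = 0.00278, adjusted p = 0.0222), and r was 0.987 without the 2 mice farthest from the median of globin, PBS replicate 1 and rapamycin replicate 2. For Slc4a1 r was 0.946 (exact permutation p = 0.00417, adjusted p = 0.0333) and rho 1 (p = 0.00278, adjusted p = 0.0222), with r = 0.930 without those 2 mice. The 16 relations computed, 8 genes against the globin mean and against the neutrophil list, were chosen after the values had been seen. With each value centred on its group mean, an alternative added after seeing the data, r with the globin mean was 0.960 for Alas2 (exact permutation within groups p = 0.0278, the smallest that 36 permutations can give, two-sided, adjusted p = 0.111) and 0.940 for Slc4a1 (p = 0.0556, adjusted p = 0.178). With this few arrangements no relation passed over the 16.

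Epb42 had r = 0.574 with the globin mean (exact permutation p = 0.228, adjusted p = 0.464) and rho = 0.829 (p = 0.0583, adjusted p = 0.187). Without the 2 outer mice its r was -0.325, so the positive value rests on them. Tfrc, Gata1 and Klf1 had r of -0.181, -0.233 and 0.0454, none of which passed (exact permutation, adjusted p of 0.815 to 0.933). Over the 4 mice left without the outer 2, their r was -0.902, -0.782 and -0.302.

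Car1 ran the other way. The mouse lowest in Alas2, PBS replicate 1, was the highest in Car1, and PBS replicate 3 and rapamycin replicate 2, the highest in Alas2, were the lowest in Car1. Its r with the globin mean was -0.817 (exact permutation p = 0.0444, adjusted p = 0.178) and rho -0.886 (p = 0.0333, adjusted p = 0.133), which did not pass over the 16 relations. Without the 2 outer mice r was -0.831, and centred on group means it was -0.951 (exact permutation within groups p = 0.0278, adjusted p = 0.111). Car2 had r = -0.551 (exact permutation p = 0.261, adjusted p = 0.464), and -0.736 without those 2 mice. Measured as the root mean square gap between profiles, each centred on its mean of 6 mice, Alas2 lay 0.193 log2 from Slc4a1 and 1.12 from Car1, and Car1 lay 0.493 from Car2.

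Neutrophil genes varied between the mice in an order close to that of Car1. The 12 neutrophil and granulocyte precursor markers, which include the granule enzymes Elane and Mpo, had a mean level of 9.24, 8.90 and 8.05 with PBS and 9.72, 8.60 and 9.04 with rapamycin. Like Car1, the list was lowest in PBS replicate 3 and next lowest in rapamycin replicate 2. Car1 correlated with the list level at r = 0.875 (exact permutation p = 0.0292, adjusted p = 0.156) and rho = 0.886 (p = 0.0333, adjusted p = 0.133), which did not pass. Without PBS replicate 3 and rapamycin replicate 1, the 2 mice farthest from the median, r was 0.798. Centred on group means r was 0.909 (exact permutation within groups p = 0.0278, adjusted p = 0.111). Alas2 had r = -0.738 with the list (exact permutation p = 0.103, adjusted p = 0.274), and -0.980 centred on group means (exact permutation within groups p = 0.0278, adjusted p = 0.111). The part of these cells in the Car1 values was not tested. An order close to that of Car1 was not particular to neutrophil genes. The list of erythroid regulators, described below, ordered the mice as Car1 did, except that rapamycin replicates 2 and 3 changed places. Its mean deviation lay only between -0.08 and 0.07, and its relation to Car1 was not tested.

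**Figure D3:**
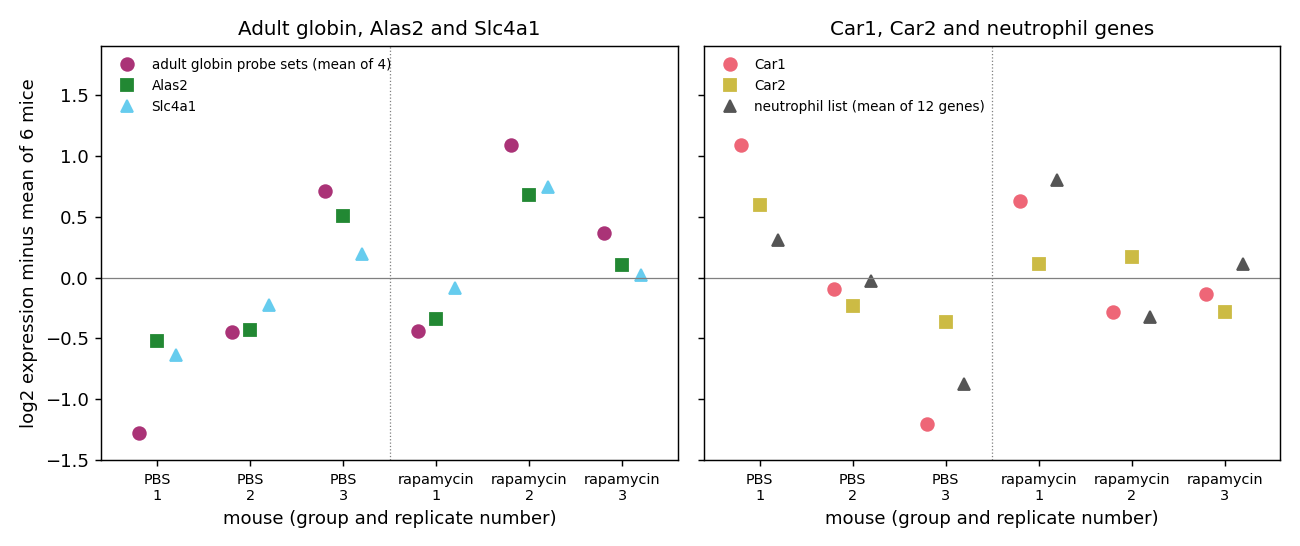
Log2 expression of each mouse minus the mean of the 6 mice, on the left for the adult globin mean, Alas2 and Slc4a1 and on the right for Car1, Car2 and the mean of 12 neutrophil genes. PBS replicate 1 is the lowest mouse for the 3 series on the left and the highest for Car1 and Car2, and PBS replicate 3 is the lowest on the right.

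Other erythroid genes were grouped by role, and 0 genes of any of these lists passed over all genes. The erythroid, iron and carbonic anhydrase lists, together with the genes listed at the start, held 94 measured genes. Of these, 5 had an unadjusted p under 0.05 in limma, against 4.67% of all genes: Alas1, Aqp1, Bcl11a, Hmox1 and Zfpm1. For haem synthesis and mitochondrial iron import, 13 genes were measured, 3 with positive and 10 with negative differences, and the median was -0.05, or -0.08 to -0.03 with single mice left out. Alas1, the form of the first haem enzyme that is used outside the red lineage, measured 8.88 ± 0.11 with PBS and 9.11 ± 0.12 with rapamycin (SD, n = 3 each). Slc25a37, the mitochondrial iron importer mitoferrin, differed by 0.17 and Uros, a haem synthesis enzyme, by -0.15. As a mean of 13 genes of both signs, the haem list moved little between mice. Its mean deviation from the 6-mouse mean lay between -0.06 and 0.04, against -1.28 to 1.08 for the adult globin probe sets. These means differ in make-up, and the haem list does not hold Alas2, which alone spanned 1.20 log2.

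Of 15 measured genes of the red cell membrane and skeleton, 12 had positive differences, and the list median was 0.06. It was 0.0064 without rapamycin replicate 1, 0.012 without PBS replicate 3 and 0.11 without rapamycin replicate 3. Aqp1, a water channel, measured 6.28, 6.02 and 5.70 with PBS and 6.52, 6.35 and 6.20 with rapamycin. The difference was 0.36 (SE 0.15, limma adjusted p = 0.9998). Kel, the Kell blood group peptidase, differed by 0.21 and stood highest in rapamycin replicate 2 at 5.87, as Epb42 did. Trim10, a ubiquitin ligase family protein of red cell precursors, differed by 0.13.

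Regulators of erythroid cells, from the erythropoietin receptor to the Gata1 cofactors, were split 8 positive to 9 negative among 17 measured genes, with a median of -0.01 that took both signs when mice were left out. Zfpm1, which encodes the Gata1 cofactor FOG-1 and is also expressed in T cells, measured 9.67, 9.73 and 9.71 with PBS and 9.43, 9.62 and 9.40 with rapamycin, and its groups did not overlap. Its difference was -0.22 (SE 0.08, limma adjusted p = 0.9998). Bcl11a, the repressor of fetal globin that B cells and progenitors also express, differed by -0.29, also without overlap, and Lmo2, a scaffold of erythroid factor complexes, by 0.16. These 2 of 17 genes without overlap stand beside 9.42% of all genes.

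Among genes of late maturation and red cell enzymes, 8 of 13 differences were positive (median 0.01). The median took both signs when mice were left out, from -0.03 without rapamycin replicate 3 to 0.12 without rapamycin replicate 1. Tspo2, a membrane transporter of maturing red cells, differed by 0.20, Ube2l6, a ubiquitin-like conjugating enzyme, by 0.19, and Tent5c, a poly(A) polymerase, by 0.18. The embryonic globin genes Hba-x, Hbb-bh1 and Hbb-y differed by 0.07, -0.03 and -0.01. Their mean deviation stayed between -0.02 and 0.03 in all 6 mice, against -1.28 to 1.08 for the adult probe sets. All 3 genes lay low, with PBS means of 5.13, 4.22 and 3.75, where array medians were 6.03 to 6.17. RMA compresses low values, so whether they followed the adult probe sets cannot be read from them.

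Iron handling genes had 5 positive and 7 negative differences among 12 measured, with a median of -0.03 that took both signs when mice were left out. Slc40a1 encodes ferroportin, the iron exporter of macrophages. It measured 8.01, 6.31 and 5.47 with PBS and 6.26, 5.12 and 5.38 with rapamycin, with PBS replicate 1 far above the others and a difference of -1.01 (SE 0.57, limma adjusted p = 0.9998). Hmox1, the haem-degrading enzyme of cells that take up red cells, differed by -0.47 (SE 0.20, limma adjusted p = 0.9998). Both genes are also in the list of red pulp macrophage markers, which is described with the other cell types.

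In the carbonic anhydrase family Car1 and Car2 had the widest ranges over the 6 mice, 2.29 and 0.95 log2. Of the 16 measured genes 7 had positive and 9 negative differences, with a median of -0.0028. Car12 differed by 0.19 and Car15 by -0.16, and 0 of 16 genes passed.

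Genes most like a mean profile of erythroid genes were sought over the 6 mice. The profile was the mean of the 5 measured genes Alas2, Epb42, Slc4a1, Klf1 and Car1, each centred, and likeness was the root mean square gap among 3457 genes whose range was at least that of the profile. The closest were Kel at 0.0499 log2, Simc1, Tnfsf9, Samt3, 4933440M02Rik, Trmt61a, Prmt8 and Plat at 0.0830. All 8 had their highest value in rapamycin replicate 2, as did the profile they were chosen to match. The profile was lowest in PBS replicate 2, at -0.18, where none of the 5 genes was lowest, so it does not stand for any of them. Because Alas2 and Car1 differ in order, single genes were also taken on their own, a choice made after the values were seen. Closest to Alas2 among 181 genes were Rgs1, a regulator of G protein signalling, at 0.133, Csf1, a macrophage growth factor, at 0.185 and Kcnip3 at 0.189. Rgs1 and Csf1 placed the 6 mice in the same order as Alas2. Rgs1 measured 8.29, 8.50 and 9.05 with PBS and 8.58, 9.56 and 9.03 with rapamycin. That order is therefore not particular to erythroid genes. Closest to Slc4a1 among 101 genes were Rgs16 at 0.151, Gucy1a1 at 0.202 and Csf2, which encodes GM-CSF, at 0.205. Only 15 genes had a range as wide as that of Car1. Closest among them were the neutrophil genes S100a9 at 0.387, Mpo at 0.410 and Ltf at 0.510. The red pulp macrophage markers Vcam1 at 0.529 and Slc40a1 at 0.597 came next. Closest to Car2 among 377 genes were Ces2g at 0.131, the red cell membrane gene Rhag at 0.162 and 6330407A03Rik at 0.180.

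Markers of the other cell types a spleen sort could hold were measured beside these genes, and 0 genes of the 7 marker lists passed. An unadjusted p under 0.05 in limma was found for 7 of 67, against 4.67% of all genes. They were C1qa, Cd5, Cd79b, Clec1b, Hmox1, Plk1 and Spic. T cell markers had a mean level of 11.3 to 11.6 in both groups over 9 genes, with PBS replicate 3 and rapamycin replicate 2 highest, the mice that were also highest in Alas2. Within that list Cd4 measured 11.59, 11.70 and 12.05 with PBS and 11.46, 12.28 and 12.01 with rapamycin, Cd5 differed by -0.19 and Cd8b1 by -0.13. Red pulp macrophage markers, genes of the cells that clear old red cells, had a mean level of 7.11 to 7.99 with PBS and 6.73 to 7.21 with rapamycin. Of 12 measured, 10 had negative differences, with Spic at -1.34, Slc40a1 at -1.01 and Vcam1 at -0.90. Spic measured 7.51, 6.70 and 6.93 with PBS and 5.77, 5.84 and 5.50 with rapamycin (limma adjusted p = 0.408). It was the only 1 of the 12 genes whose groups did not overlap, against 9.42% of all genes. Slc40a1 and Vcam1 overlapped between the groups and were highest in PBS replicate 1. That list was highest in PBS replicate 1 and lowest in rapamycin replicate 2, the lowest and the highest mouse of the globin mean. The part of these cells in the erythroid values was not tested.

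Neutrophil markers were positive in 11 of 12 measured genes, with a median of 0.46 and with Camp at 0.66, Elane at 0.61 and Ltf at 0.55. The median was 0.07 without PBS replicate 3, 0.16 without rapamycin replicate 1 and 0.23 with array weights, and 0.69 without rapamycin replicate 2 and 0.71 without PBS replicate 1. Mast cell, basophil and eosinophil markers, whose cells also use Gata1, had a mean level of 5.23 to 5.87 with PBS and 5.46 to 6.04 with rapamycin. Of 9 measured, 7 had positive differences, with Epx at -0.38, Prss34 at 0.35 and Fcer1a at 0.26. Megakaryocyte and platelet markers, also Gata1-dependent, lay low at 4.98 to 5.15 with PBS and 4.99 to 5.08 with rapamycin. Of 7 measured, 3 had positive differences, with Clec1b at -0.26, Pf4 at -0.08 and Gp9 at -0.05. B cell markers had a mean level of 5.07 to 5.18 with PBS and 5.03 to 5.14 with rapamycin. Of 7 measured, 4 had positive differences, with Cd79b at -0.54, Fcer2a at 0.07 and Blk at 0.06. Among the 11 dividing cell markers Plk1 differed by -0.23, Ccnb2 by -0.18 and Tpx2 by -0.14. Values after RMA have no 0. Among the low markers were Clec1b, between 3.28 and 3.82, Pf4, between 3.70 and 3.81, and the B cell gene Ms4a1, between 3.68 and 4.12.

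**Figure D4:**
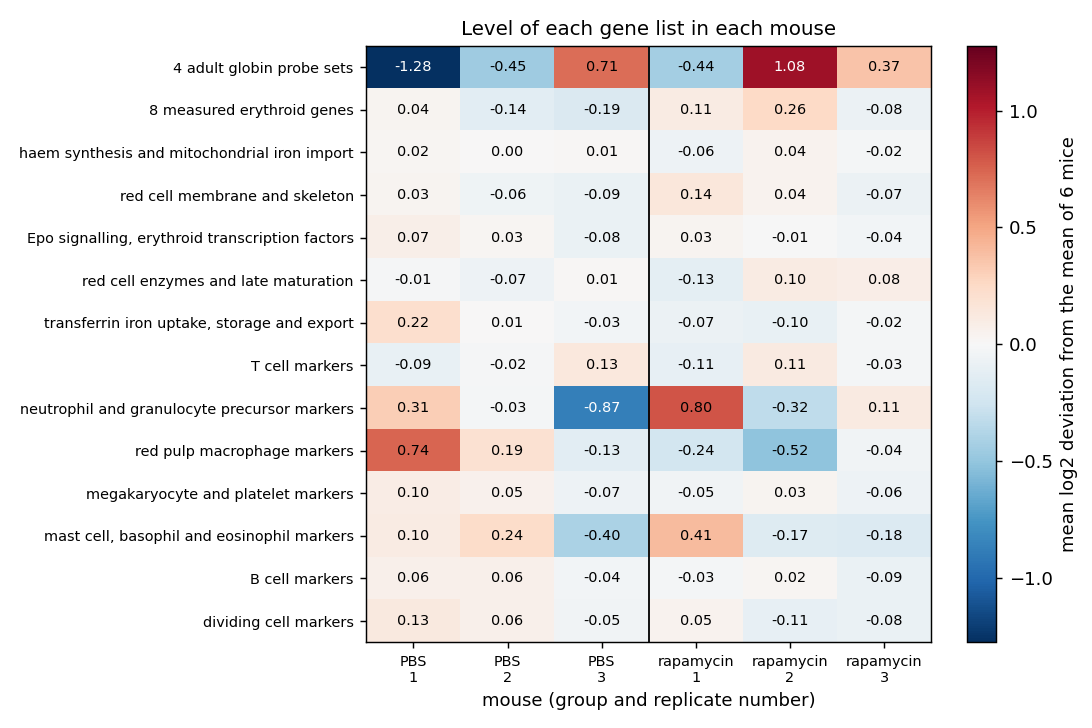
Mean log2 deviation from the mean of the 6 mice for each gene list (rows) in each mouse (columns), red above and blue below, with the value in each cell. The adult globin row runs from -1.28 in PBS replicate 1 to 1.08 in rapamycin replicate 2, and the neutrophil row from -0.87 in PBS replicate 3 to 0.80 in rapamycin replicate 1.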

How the data were processed

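The 6 samples were assigned to groups by their titles. The deposited values are log2 expression per probe set, made by the authors with Affymetrix Expression Console and RMA, per the submitters' processing notes. Of versions, probe library files and genome build, nothing is given in the sources used here. RMA equalises arrays, which hides shifts shared by most genes, and compresses low values.

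Of 35556 probe sets, the platform table gives 21789 exactly 1 symbol, 1621 several and 12146 none. Where a gene had several, the one with the highest mean was used, giving 19938 genes. Differences were tested with limma 3.58.1 in R 4.3.3 (lmFit and eBayes, group only, 8.44 degrees of freedom), with Benjamini-Hochberg adjustment over all genes and 0.05 as the threshold of the adjusted p. The test was checked on simulated data with differences larger than those of the listed erythroid genes. Differences as small as theirs were not covered by that check. Figures used Python 3.11.15 and matplotlib 3.10.9. Arrays carry no read depth, and their number limits the precision: the median standard error was 0.0955 log2.

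The genes and lists were chosen with earlier results of these data known. Named are the members, the 3 genes of each list with the largest absolute difference, and 8 genes most like the members. Ms4a1, Mpo, Cd3e, Rhag and the genes closest to a single member were named after their values were seen. Alternatives left out each mouse, used the replicate number as a block, and changed the filter, probe set rule, normalization, weights, variance prior and scale.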

Additional observations from a re-analysis of the deposited data

How the results depend on the processing

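Over 15 alternatives, 0 erythroid genes passed in any. The count over all genes, 1 as reported, lay between 0 and 7 when single mice were left out (7 without rapamycin replicate 1), and was 0 with the replicate block. The median difference of the erythroid genes lay between 0.088 and 0.28 without single mice. Of the 8 genes, 5 to 7 had a positive difference without single mice, and 3 of the 4 left without the lowest 50% of genes. The Car1 difference lay between -0.43 and 0.72 without single mice and was -0.19 with array weights. The Car2 difference lay between -0.18 and 0.30 without single mice, and was 0.022 with quantile normalization again and 0.010 with array medians set equal. The other 6 genes kept their sign, and the 40 values of the adult globin probe sets stayed positive and did not pass. Of the medians and counts of the other lists, 10 values moved and 408 did not. Those that moved were all medians, beyond the spread between mice, and most belonged to the iron list. The counts of genes past the threshold were 0 in every setting, so they add nothing on stability of the medians. Deviations of same-numbered mice of the groups correlated at 0.0861, -0.192 and 0.195, and those of differently numbered mice at -0.438 to 0.365. With 3 mice per group, these values cannot decide whether the numbers pair the mice. The replicate block lowered the standard error of Car1 from 0.50 to 0.27 and that of Tfrc from 0.15 to 0.10. Among the erythroid genes only that of Klf1 rose, from 0.072 to 0.082. With the replicate block 0 erythroid genes passed.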
